A study of Homo sapiens with 12 samples.

Results

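The G1 cyclins and their kinases comprised 10 genes of the 24359 gene symbols in the deposited tables. They were the D-type cyclin genes CCND1, CCND2 and CCND3, the E-type cyclin genes CCNE1 and CCNE2, the cyclin-dependent kinase genes CDK2, CDK4 and CDK6, the phosphatase gene CDC25A and the ubiquitin ligase subunit gene SKP2. Members were taken by symbol from the annotation of the PC-3M table, where they had 18 RefSeq transcript rows. Where a gene had several rows, the one of highest mean over the 6 PC-3M libraries stood for it. The measured values played no other part in the choice of row. The members themselves were listed with earlier results of these data known. KMT9a siRNA was compared with control siRNA in 2 human cell lines. PC-3M, a metastasizing subline of PC-3 prostate cancer cells, was used at passage 11, and MCF10A, a non-transformed breast epithelial line, at passage 13. Each of the 4 groups held 3 libraries of total RNA, labelled as biological replicates. The labels do not say whether these were separate cultures, so the p-values refer only to the spread among these libraries. The gene N6AMT1 encodes KMT9a, a methyltransferase whose partner is TRMT112, and the series title names the control of metabolism and proliferation as the question.

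Cells commit to division in G1. D-type cyclins bind CDK4 and CDK6 and start the phosphorylation of the retinoblastoma protein, which releases E2F transcription factors, and the E2F factors then drive genes that include the E-type cyclins. E-type cyclins bind CDK2, CDC25A removes inhibitory phosphates from CDK2, and SKP2 targets the CDK2 inhibitor p27 for degradation. INK4 inhibitors act on CDK4 and CDK6, and CIP and KIP inhibitors act mainly on CDK2 complexes.

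Depth differed between the lines, with 40236218 to 53401602 read ends assigned to genes per PC-3M library (a read pair has 2 ends) and 181064 to 255642 per MCF10A library. N6AMT1 was at 3.01, 2.58 and 2.83 CPM (reads of a gene per total of the tested genes of its library, after TMM scaling, which adjusts for differences in composition between libraries) in PC-3M libraries with KMT9a siRNA, against 11.4, 12.0 and 11.0 CPM with control siRNA, and fell by 2.02 on the log2 scale (SE 0.107, limma adjusted p = 3.47e-09). The groups did not overlap, in the direction of the labels. Epithelial keratin and adhesion markers were above 1 CPM for 4 of 4 genes in PC-3M. Fibroblast markers summed to 28.3 to 36.7 and 52.0 to 54.0 CPM, with DCN at 0, and endothelial markers to 1.86 to 2.16 and 0.274 to 0.585 CPM, with VWF at 0, in KMT9a siRNA and control siRNA libraries. Leukocyte and basal markers reached at most 1.07 CPM in sum. Their part in the results was not tested. KMT9a siRNA replicate 2 of PC-3M stood apart from the other libraries of its group, with a chi-square per degree of freedom of 11.0 and 13.3 against them and 2.37 between those 2. Without it the same number of members passed the test, 2 higher and 5 lower.

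In PC-3M, E-type cyclin and CDC25A transcripts were at least 2-fold lower with KMT9a siRNA, while the D-cyclin gene CCND1 and the kinase gene CDK2 were higher and CDK4 and CDK6 slightly lower. Of the 10 members, 9 passed the filter on low values and were tested, and CCND2 did not. The test was limma on log2 of the scaled value plus 1, with Benjamini-Hochberg adjusted p-values over all tested genes and a threshold of 0.05. It called 7 of the 9 tested members, or 77.8%, while it called 74.5% of all 14958 tested genes, so the number of changed members was close to the background. CCND1 and CDK2 rose (background 37.2% higher), CCNE1, CCNE2, CDK4, CDK6 and CDC25A fell (background 37.3% lower), and CCND3 and SKP2 did not pass. Called changes of at least 2-fold were found for 3 of the 9, CCNE1, CCNE2 and CDC25A, against a background of 24.2%. The libraries of the 2 groups did not overlap for 8 of the 9, against a background of 77.0%. The median log2 fold change was -0.18 over the 9 tested members and 0.00100 over all tested genes. In these bulk libraries fewer cells in a given state and less RNA per cell cannot be told apart.

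**Figure D1:**
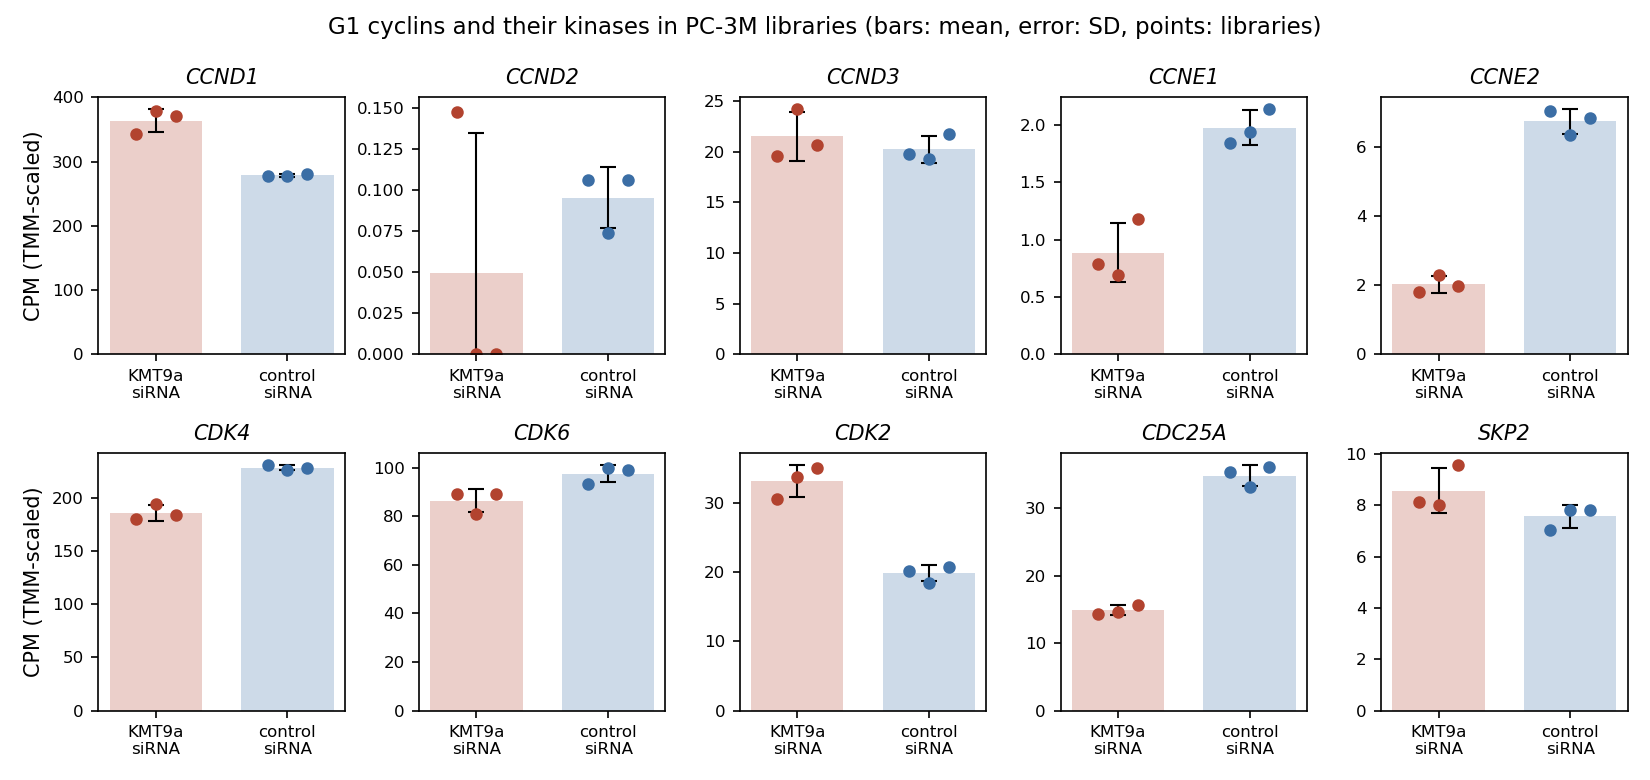
CPM of each member in the 6 PC-3M libraries, 1 panel per gene, with KMT9a siRNA to the left of control siRNA. Points are libraries and bars show the mean and SD of 3. CCNE1, CCNE2, CDK4, CDK6 and CDC25A lie lower with KMT9a siRNA and CCND1 and CDK2 higher, while the libraries overlap for CCND3.

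CCND1 encodes cyclin D1, a partner of CDK4 and CDK6 whose transcription responds to growth factor signals. Its row covered hg19 chromosome 11, positions 69455873 to 69469242, on the plus strand. CCND1 was at 343, 378 and 370 CPM with KMT9a siRNA, against 278, 277 and 281 CPM with control siRNA. All 3 KMT9a siRNA libraries lay above all 3 control libraries. The mean was 364 ± 18.3 CPM with KMT9a siRNA and 279 ± 2.40 CPM with control siRNA (SD, n = 3), and CCND1 rose by 0.38 on the log2 scale (SE 0.0490, limma adjusted p = 1.29e-05), or 1.31-fold. Between 13922 and 16978 read ends per library lay behind these values.

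CCND3, which encodes cyclin D3, was at 19.6, 24.2 and 20.7 CPM with KMT9a siRNA and at 19.7, 19.2 and 21.7 CPM with control siRNA. The groups overlapped. Its log2 fold change was 0.08 (SE 0.0896, limma adjusted p = 0.409). CCND2, which encodes cyclin D2, was near the limit of detection. CCND2 had 6, 0 and 0 read ends with KMT9a siRNA, against 6, 4 and 6 with control siRNA, at or under a floor of 3 read pairs in every library, so no fold is given.

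Per kilobase of transcript, which allows levels of different genes to be compared, CCND1 made up most of the D-cyclin transcripts. Its share of the D-cyclin sum was 89.4%, 88.2% and 89.6% with KMT9a siRNA, against 87.1%, 87.3% and 86.1% with control siRNA. The groups did not overlap, and an exact two-sided permutation test gave p = 0.1, the smallest value that 3 against 3 allows, or 0.157 adjusted over 11 shares and sums. The D-cyclin sum was 95.5 ± 5.28 CPM per kb with KMT9a siRNA and 75.0 ± 1.20 CPM per kb with control siRNA (SD, n = 3). This difference followed CCND1, since CCND3 differed by less than its spread between libraries.

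The E-type cyclins bind and activate CDK2 at the entry into S phase. CCNE1, which encodes cyclin E1, lay on hg19 chromosome 19, positions 30302901 to 30315215, on the plus strand. CCNE1 was at 0.789, 0.691 and 1.18 CPM with KMT9a siRNA and at 1.84, 1.94 and 2.14 CPM with control siRNA, and the groups did not overlap. The mean was 0.886 ± 0.257 CPM with KMT9a siRNA and 1.97 ± 0.153 CPM with control siRNA (SD, n = 3), and CCNE1 fell by 1.15 on the log2 scale (SE 0.216, limma adjusted p = 0.000356), or 2.22-fold. These values rested on 32, 31 and 45 read ends with KMT9a siRNA, against 104, 105 and 121 with control siRNA, so CCNE1 is the least precise of the 9 tested members, with the largest SE.

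CCNE2, which encodes cyclin E2, lay on chromosome 8 (hg19 positions 95892453 to 95907482, minus strand). It was at 1.80, 2.29 and 1.99 CPM with KMT9a siRNA, against 7.06, 6.35 and 6.85 CPM with control siRNA. The groups were far apart relative to their spread. The mean was 2.03 ± 0.249 CPM with KMT9a siRNA and 6.75 ± 0.365 CPM with control siRNA (SD, n = 3), and CCNE2 fell by 1.72 on the log2 scale (SE 0.131, limma adjusted p = 9.96e-08), or 3.30-fold. Its log2 fold change lay at the 4.14th percentile of all tested genes, the lowest of the members.

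The CCNE2 value is uncertain because the gene overlaps INTS8 end to end on the opposite strand, by 269 bases, and strand handling is not given in the sources used here. INTS8, which encodes an Integrator complex subunit, was at 50.3 ± 4.44 CPM with KMT9a siRNA and 128 ± 4.09 CPM with control siRNA (SD, n = 3; log2 fold change -1.35, limma adjusted p = 1.73e-09). Spread evenly along the 3320 base transcript, INTS8 reads in the 269 bases would be 3.72 to 4.44 CPM with KMT9a siRNA. With control siRNA they would be 10.1 to 10.7 CPM. Both exceed all reads of CCNE2, at 1.80 to 2.29 and 6.35 to 7.06 CPM in the same groups. Reads at that density therefore cannot all have been counted in CCNE2, and the part of INTS8 reads in its value was not tested. CCNE2 was 4.07% ± 0.805 of the INTS8 level with KMT9a siRNA and 5.27% ± 0.448 with control siRNA (SD, n = 3). These percentages overlapped between the groups (exact two-sided permutation test, p = 0.2). If reads were counted without strand, a fall of CCNE2 and a fall of INTS8 cannot be told apart in these values.

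Relative to each other, CCNE2 was the more abundant E-type cyclin per kilobase, with 62.3% ± 7.85 of their sum with KMT9a siRNA and 70.9% ± 2.03 with control siRNA (SD, n = 3). The libraries of the groups overlapped in this share (exact two-sided permutation test, p = 0.3). The E-type sum was 1.21 ± 0.135 CPM per kb with KMT9a siRNA and 3.52 ± 0.149 CPM per kb with control siRNA (SD, n = 3), and INTS8 reads could enter the sum and the share through CCNE2. CCNE1 has no such overlap with another row on the opposite strand in the table.

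**Figure D2:**
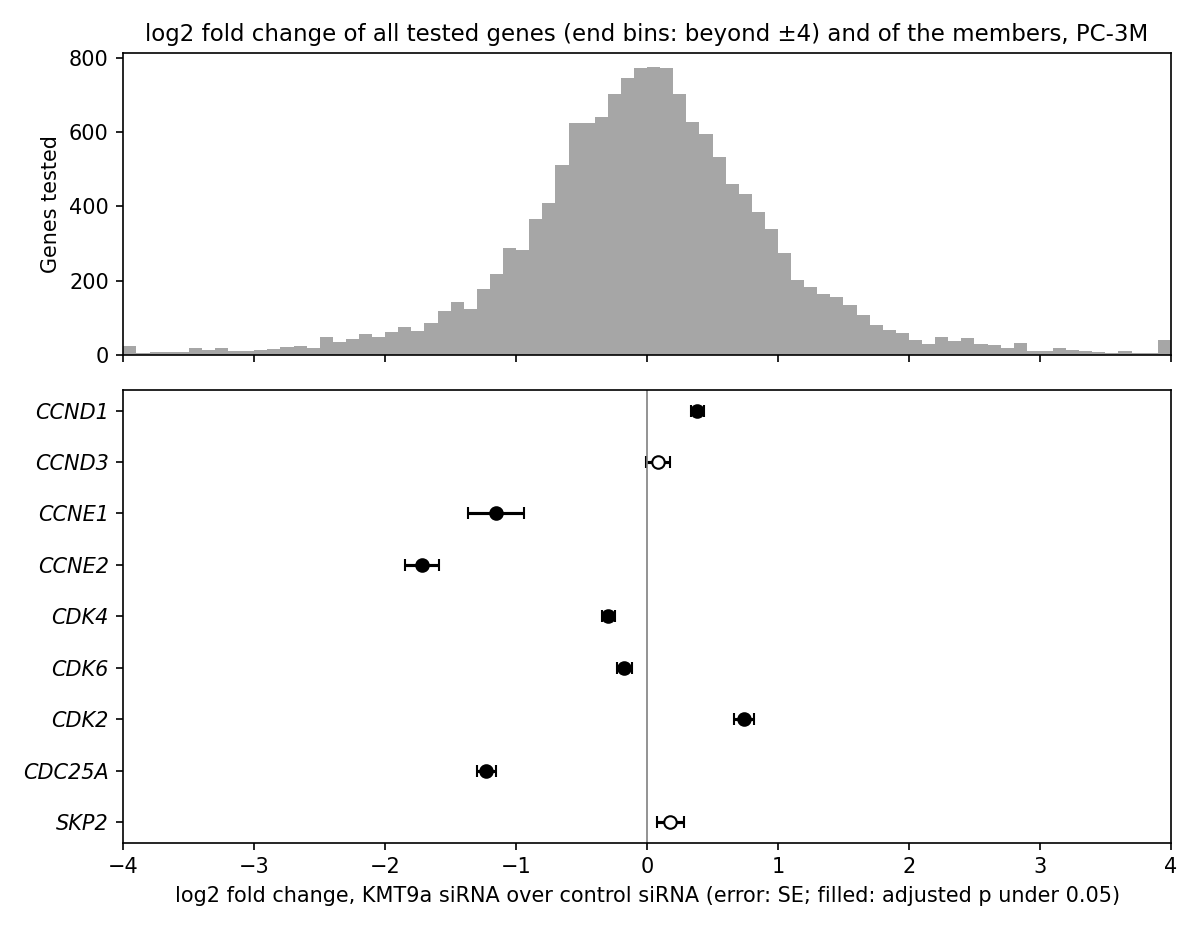
log2 fold changes (KMT9a siRNA over control siRNA) in PC-3M, with all 14958 tested genes as a histogram, whose end bins hold values beyond the axis, and the 9 tested members as points with their SE, filled where the adjusted p was under 0.05. CCNE2, CDC25A and CCNE1 lie in the lower tail, and CDK2 and CCND1 lie above 0.

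Among the kinases, CDK2 rose and CDK4 and CDK6 fell. CDK2, the partner of the E-type and A-type cyclins (hg19 chromosome 12, positions 56360556 to 56366568, plus strand), was at 30.6, 33.9 and 35.2 CPM with KMT9a siRNA, against 20.3, 18.5 and 20.8 CPM with control siRNA. Every KMT9a siRNA library exceeded every control library. The mean was 33.2 ± 2.34 CPM with KMT9a siRNA and 19.9 ± 1.17 CPM with control siRNA (SD, n = 3), and CDK2 rose by 0.74 on the log2 scale (SE 0.0764, limma adjusted p = 1.79e-06), or 1.67-fold. CDK2 was thus higher in the libraries in which the transcripts of its partners CCNE1 and CCNE2 were lower.

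CDK4, a kinase activated by D-type cyclins (hg19 chromosome 12, positions 58141510 to 58146230, minus strand), was at 179.9, 195 and 184 CPM with KMT9a siRNA, against 231, 226 and 228 CPM with control siRNA. The groups did not overlap. CDK4 fell by 0.30 on the log2 scale (SE 0.0481, limma adjusted p = 0.000106), or 1.23-fold, and the mean was 186 ± 7.61 CPM with KMT9a siRNA and 228 ± 2.28 CPM with control siRNA (SD, n = 3). CDK4 overlaps TSPAN31 on the opposite strand by 517 bases. TSPAN31 also fell, by 0.36 on the log2 scale (limma adjusted p = 0.000138), and at its own mean density those 517 bases would hold 9.27 to 9.96 CPM with KMT9a siRNA and 12.2 to 12.7 CPM with control siRNA, a small part of the CDK4 level.

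CDK6, the other kinase of D-type cyclins (hg19 chromosome 7, positions 92234235 to 92465941, minus strand), was at 89.0, 81.0 and 89.0 CPM with KMT9a siRNA and at 93.4, 100.0 and 99.1 CPM with control siRNA. The groups were close but did not overlap. CDK6 fell by 0.18 on the log2 scale (SE 0.0576, limma adjusted p = 0.0148), or 1.13-fold. This is the smallest change among the members that passed, and the call was lost without control replicate 2 (limma adjusted p = 0.0655) and without control replicate 3 (limma adjusted p = 0.0623).

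CDK4 was the most abundant kinase in both groups, with shares that differed. Of the sum of the 3 kinases per kilobase, CDK4 held 81.0% ± 0.885 with KMT9a siRNA and 87.1% ± 0.320 with control siRNA (SD, n = 3), and CDK2 held 12.6% ± 0.680 with KMT9a siRNA and 6.60% ± 0.334 with control siRNA. Neither share overlapped between the groups (exact two-sided permutation test, p = 0.1 for each, or 0.157 adjusted over the 11). CDK6 held 6.40% ± 0.544 with KMT9a siRNA and 6.31% ± 0.282 with control siRNA, where the groups overlapped. As a ratio within each library, which no scaling between libraries can alter, log2 CDK2 over CDK4 was -2.68 ± 0.09 with KMT9a siRNA and -3.72 ± 0.08 with control siRNA, a difference of 1.04.

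Over the 5 ratios computed between members, 2 did not overlap between the groups. These were CDK2 over CDK4 and CCND1 over CCND3, the second at 3.02 ± 0.11 with KMT9a siRNA and 2.72 ± 0.08 with control siRNA on the log2 scale (SD, n = 3). Each had an exact two-sided permutation p = 0.1, or 0.25 adjusted over the 5 ratios, so neither can pass the threshold with 3 libraries against 3. The ratios of CCNE2 over CCNE1 and of CDK6 over CDK4 overlapped, with differences of -0.57 and 0.12. Leaving out 1 library at a time moved these to between -0.81 (without KMT9a siRNA replicate 2) and -0.34 (without KMT9a siRNA replicate 3), and to between 0.07 (without KMT9a siRNA replicate 1) and 0.20 (without KMT9a siRNA replicate 2). CCND2 over CCND1 cannot be read, since CCND2 was at 0 in 2 libraries.

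CDC25A encodes a phosphatase that activates CDK2 complexes. Its row lay on hg19 chromosome 3, positions 48198668 to 48229801, on the minus strand. CDC25A was at 14.3, 14.6 and 15.7 CPM with KMT9a siRNA, against 35.3, 33.1 and 36.1 CPM with control siRNA. The groups were separated by more than the whole range within either. The mean was 14.9 ± 0.743 CPM with KMT9a siRNA and 34.9 ± 1.56 CPM with control siRNA (SD, n = 3), and CDC25A fell by 1.23 on the log2 scale (SE 0.0716, limma adjusted p = 8.35e-09), or 2.34-fold. With 581 to 2040 read ends per library and no overlapping opposite-strand row, CDC25A had the smallest SE of the 3 members that fell by at least 2-fold.

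SKP2 encodes the F-box subunit of the ligase that marks p27 for degradation. It was at 8.14, 8.02 and 9.57 CPM with KMT9a siRNA and at 7.06, 7.83 and 7.82 CPM with control siRNA. All 3 KMT9a siRNA libraries lay above the control libraries, though by little. Its log2 fold change of 0.18 (SE 0.103) did not pass (limma adjusted p = 0.140), and it was 0.01 with library totals in place of TMM scaling.

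That other scaling lowered the median log2 fold change of all tested genes to -0.17, so small changes depend on it in size. The log2 fold changes of CCND1, CDK4 and CDK6 were 0.21, -0.47 and -0.35 with library totals, against 0.38, -0.30 and -0.18 with TMM scaling. Set against the median of all genes, each kept nearly the same distance. All 7 calls and their directions were the same under both. With library totals 4384 of all tested genes were called higher and 6821 lower.

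**Figure D3:**
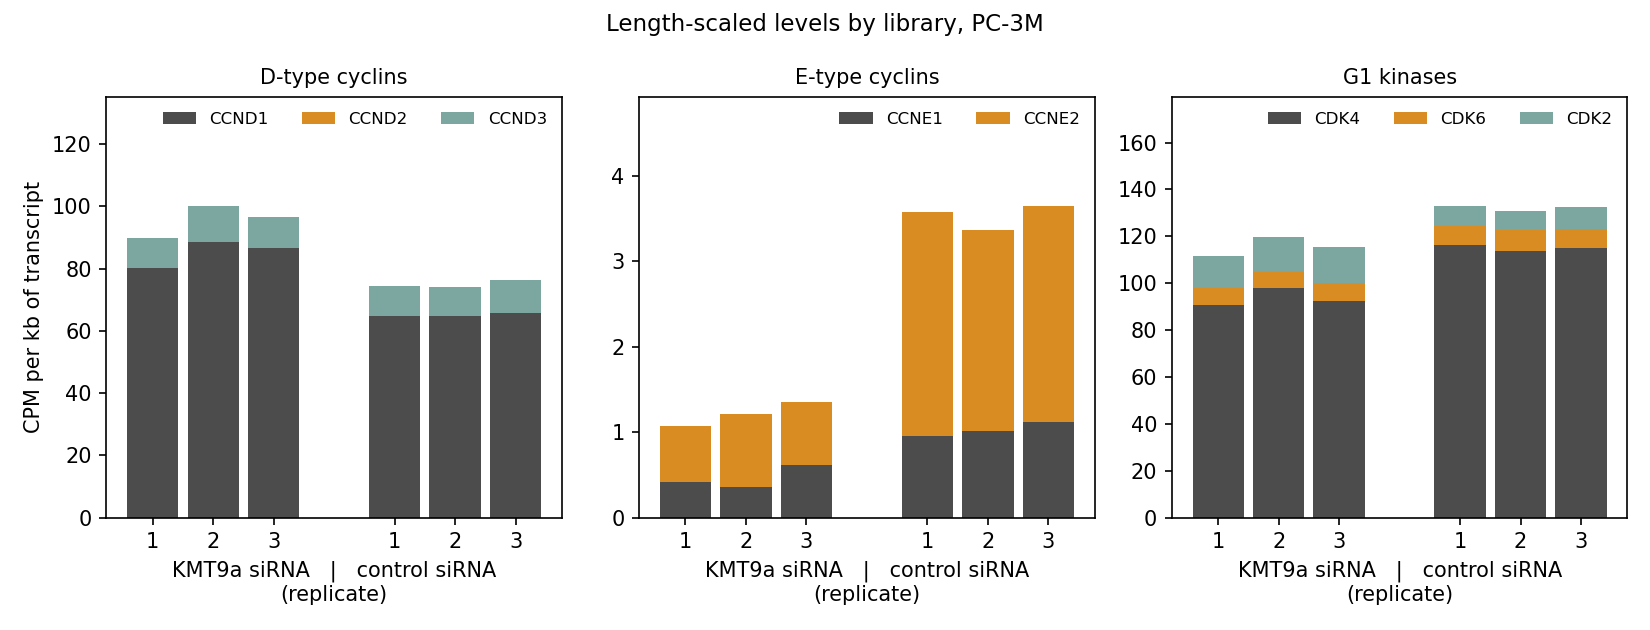
CPM per kb in each PC-3M library, in separate panels for the D-type cyclins, the E-type cyclins and the kinases CDK4, CDK6 and CDK2. Bars are stacked by gene, with KMT9a siRNA to the left of control siRNA. CCND1 makes up most of the D-cyclin bars and CDK4 most of the kinase bars, and CCNE2 exceeds CCNE1 in every library.

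On the length-scaled level, CDK4 and CCND1 were the most abundant members in both groups. CDK4 was at 93.7 ± 3.83 CPM per kb with KMT9a siRNA and 115 ± 1.15 CPM per kb with control siRNA, and CCND1 at 85.0 ± 4.27 and 65.1 ± 0.562 CPM per kb in the same groups (SD, n = 3). With KMT9a siRNA the order went on with CDK2, CCND3, CDK6, CDC25A, SKP2, CCNE2, CCNE1 and CCND2, and no neighbours in that order overlapped. With control siRNA the order was CCND3, CDC25A, CDK2, CDK6, CCNE2, SKP2, CCNE1 and CCND2 after the first 2. There CCND3 overlapped CDC25A, CDC25A overlapped CDK2 and CDK2 overlapped CDK6, so these neighbours had no clear order. CDK2 was at 14.6 ± 1.03 CPM per kb with KMT9a siRNA and 8.71 ± 0.511 CPM per kb with control siRNA, while CDC25A was at 4.05 ± 0.202 and 9.48 ± 0.424 CPM per kb. CDC25A was therefore below CDK6 with KMT9a siRNA and above it with control siRNA, CDK6 being at 7.38 ± 0.397 and 8.33 ± 0.306 CPM per kb.

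Promoter sequences are shown for CDC25A and CCNE1, the members that fell by at least 2-fold and had an entry in the RefSeq promoter table (build GRCh38.p14). The table held 9 promoters of 6 members, CCND3, CCNE1, CDK4, CDK6, CDC25A and SKP2. Each window ran from 250 bases before to 50 after the start, and the lines below give the bases upstream of every annotated start, 5′ to 3′ on the gene's strand. CDC25A is at chr3:48188418-48188667 on the minus strand and CCNE1 at chr19:29811741-29811897 on the plus strand. Capitals mark matches to the motifs named after the sequences.
CDC25A: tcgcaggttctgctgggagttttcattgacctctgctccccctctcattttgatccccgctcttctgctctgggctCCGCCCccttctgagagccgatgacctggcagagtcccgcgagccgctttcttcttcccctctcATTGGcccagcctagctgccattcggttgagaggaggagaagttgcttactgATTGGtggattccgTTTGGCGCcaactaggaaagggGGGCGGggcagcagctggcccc
CCNE1: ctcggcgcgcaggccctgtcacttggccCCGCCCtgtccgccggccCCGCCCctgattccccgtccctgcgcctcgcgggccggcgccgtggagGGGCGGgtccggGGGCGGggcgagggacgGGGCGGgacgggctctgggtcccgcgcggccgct

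Both strands of the whole windows were searched for 7 motifs. The percentages below are per promoter, whereas a member is named if any of its promoters had a match. CCND3 and CDK6 had several promoters, so the members named and these percentages are in unlike units. The E2F words TTTCCCGC, TTTCGCGC, TTTGCCGC and TTTGGCGC were in 3.31% of all 35116 promoters of the table and, among the 6 members, in CDC25A alone, where TTTGGCGC began 44 bases upstream of the start. The CCAAT box was in 34.6% of all promoters and in CDC25A and CCND3, with CDC25A matches 110 and 58 bases upstream in reverse orientation. The SP1 box GGGCGG was in 45.0% of all promoters and in each of the 6 members, though not in every CCND3 or CDK6 promoter. The CCNE1 window held 7 of its matches. The E-box CACGTG was in 7.26% of all promoters and in CDK4, 216, 196 and 101 bases upstream, and in CDK6. The cyclic AMP response element TGACGTCA (1.85%), the AP-1 site TGACTCA (4.95%) and the cell cycle homology region TTTGAA (15.2%) had no match in the 6 members. A match is a stretch of letters and was not tested as a site.

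The remaining genes of the G1/S pathway numbered 40, all tested, of which 11 rose, 25 fell and 4 did not pass (90% called, against 74.5% of all tested genes, of which 37.2% were higher and 37.3% lower). The median log2 fold change of the 40 was -0.34, against 0.00100 over all tested genes. In these libraries transcripts of proliferating cells were lower too, with 12 of 14 cell cycle readout genes lower, MCM7 higher and MCM4 not passing (median log2 fold change -1.90), against a background of 37.3% lower. MKI67, a marker of cycling cells, fell by 3.19, CDK1 by 3.48 and PCNA by 0.85 on the log2 scale. CCNE1, CCNE2 and CDC25A are themselves transcribed in a cell cycle dependent way, and the part of cell cycle position in their values was not tested.

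For the upstream regulators of CDK4, CDK6 and CDK2, 4 of 7 CDK inhibitor genes rose and 2 fell, not far from the background of 74.5% called. The INK4 gene CDKN2B rose by 2.70 and CDKN2A by 1.62 on the log2 scale, whereas the INK4 genes CDKN2C and CDKN2D fell, with log2 fold changes of -0.75 and -0.97. Of the CIP and KIP genes, CDKN1A rose by 1.90 and CDKN1B by 0.30, and CDKN1C had a log2 fold change of 0.50 that did not pass (limma adjusted p = 0.288). The counted CDKN2A row, NM_058195, holds exons that p16, an INK4 inhibitor, shares with ARF, which is not one. The 2 products cannot be separated in it.

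Set against their kinases on the length-scaled level, INK4 and CIP or KIP transcripts gave unlike pictures. These sums were chosen after the values had been seen. The 4 INK4 genes summed to 458, 558 and 467 CPM per kb with KMT9a siRNA, against 136, 140.1 and 142 CPM per kb with control siRNA. CDK4 and CDK6 summed to 98.2, 104.9 and 100.1 CPM per kb with KMT9a siRNA, against 124, 122 and 123 CPM per kb with control siRNA. CDKN2A supplied 279.5 ± 49.6 of the INK4 sum with KMT9a siRNA and 90.3 ± 1.86 with control siRNA (CPM per kb, SD, n = 3). Most of the sum thus rests on a row whose reads cannot be assigned to p16 or to ARF. The INK4 sum was 4.88 ± 0.377 times that of its kinases with KMT9a siRNA and 1.13 ± 0.0298 times with control siRNA (SD, n = 3; exact two-sided permutation test, p = 0.1, the smallest possible), with no overlap. Without CDKN2A it was 2.13 ± 0.0343 times with KMT9a siRNA and 0.399 ± 0.0130 times with control siRNA, again with no overlap. CDKN2B supplied 205 ± 5.92 of the remaining 215 ± 5.79 CPM per kb with KMT9a siRNA. With control siRNA it supplied 31.5 ± 1.29 of 49.2 ± 1.29 CPM per kb (SD, n = 3). CDKN2C and CDKN2D were lower with KMT9a siRNA, so the higher ratio without CDKN2A followed CDKN2B alone among the INK4 genes. The CIP and KIP sum over CDK2 was 6.04, 5.69 and 5.26 with KMT9a siRNA, against 5.02, 5.72 and 5.14 with control siRNA. This ratio overlapped, since CDK2 and the CIP and KIP sum were both higher with KMT9a siRNA (exact two-sided permutation test of the ratio, p = 0.3). Transcript ratios do not measure the proteins.

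Downstream of the D-cyclin kinases, the pocket protein gene RB1 had a log2 fold change of 0.15 that did not pass (limma adjusted p = 0.136), while RBL1 and RBL2, which encode its relatives p107 and p130, fell by 1.49 and 0.36. Of 10 E2F and DP genes, 4 rose and 6 fell, against backgrounds of 37.2% higher and 37.3% lower. The activator genes E2F1 and E2F2 fell by 3.43 and 3.72 on the log2 scale, whereas the third activator gene, E2F3, rose by 0.25 (limma adjusted p = 0.00227), at 64.1 ± 3.35 CPM with KMT9a siRNA and 53.9 ± 1.97 CPM with control siRNA (SD, n = 3). The repressor genes E2F7 and E2F8 moved in opposite directions, at log2 fold changes of 1.80 and -1.82, and the dimerization partners TFDP1 and TFDP2 fell by 0.81 and 0.52.

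CDC25A can be read beside its family and the kinases that oppose it. CDC25C, which acts at mitosis, fell to 0.291 ± 0.0467 CPM with KMT9a siRNA, against 2.91 ± 0.0793 CPM with control siRNA (SD, n = 3). CDC25B, the third member, rose by 1.64 on the log2 scale (limma adjusted p = 1.82e-10), at 341 ± 31.8 CPM with KMT9a siRNA and 110 ± 0.569 CPM with control siRNA. The CDC25 genes thus did not move together. WEE1 and PKMYT1, whose kinases add the phosphates that CDC25 enzymes remove, fell by 1.39 and 1.46 on the log2 scale, and CHEK1, whose kinase marks CDC25A for destruction, fell by 0.63.

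SKP2 works with CKS1B, which helps it to bind p27, and with SKP1, CUL1 and RBX1, which form the rest of the ligase. CKS1B fell by 1.29 on the log2 scale (limma adjusted p = 1.50e-08), at 13.1 ± 1.05 CPM with KMT9a siRNA and 32.1 ± 1.71 CPM with control siRNA (SD, n = 3). CUL1, SKP1 and RBX1 fell by 0.48, 0.20 and 0.21. Thus 4 partners of SKP2 fell, against a background of 37.3% lower, while SKP2 itself did not pass. The falls of SKP1 and RBX1 were ordinary in size, each at the 39.5th percentile of log2 fold change over all tested genes. Among the ligase genes that act on cyclins, FBXW7, whose product targets cyclin E, had a log2 fold change of 0.11 that did not pass (limma adjusted p = 0.160), AMBRA1, whose product targets D-type cyclins, rose by 0.51 and FBXO31 fell by 0.52.

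The CDK-activating kinase is a trimer of CDK7, cyclin H and MNAT1 that phosphorylates the CDKs on their activation loop. Its kinase gene CDK7 rose by 0.76 on the log2 scale, at 39.2 ± 2.81 CPM with KMT9a siRNA and 23.1 ± 0.244 CPM with control siRNA (SD, n = 3), whereas CCNH fell by 0.68 and MNAT1 by 0.35. Of the A-type cyclins, which succeed the E-type on CDK2, CCNA2 fell by 2.45, to 7.12 ± 1.74 CPM with KMT9a siRNA, against 38.4 ± 0.924 CPM with control siRNA, and CCNA1 did not pass (log2 fold change 0.23, limma adjusted p = 0.450). CDC37, whose product helps the heat shock protein HSP90 to fold CDK4, fell by 0.34.

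**Figure D4:**
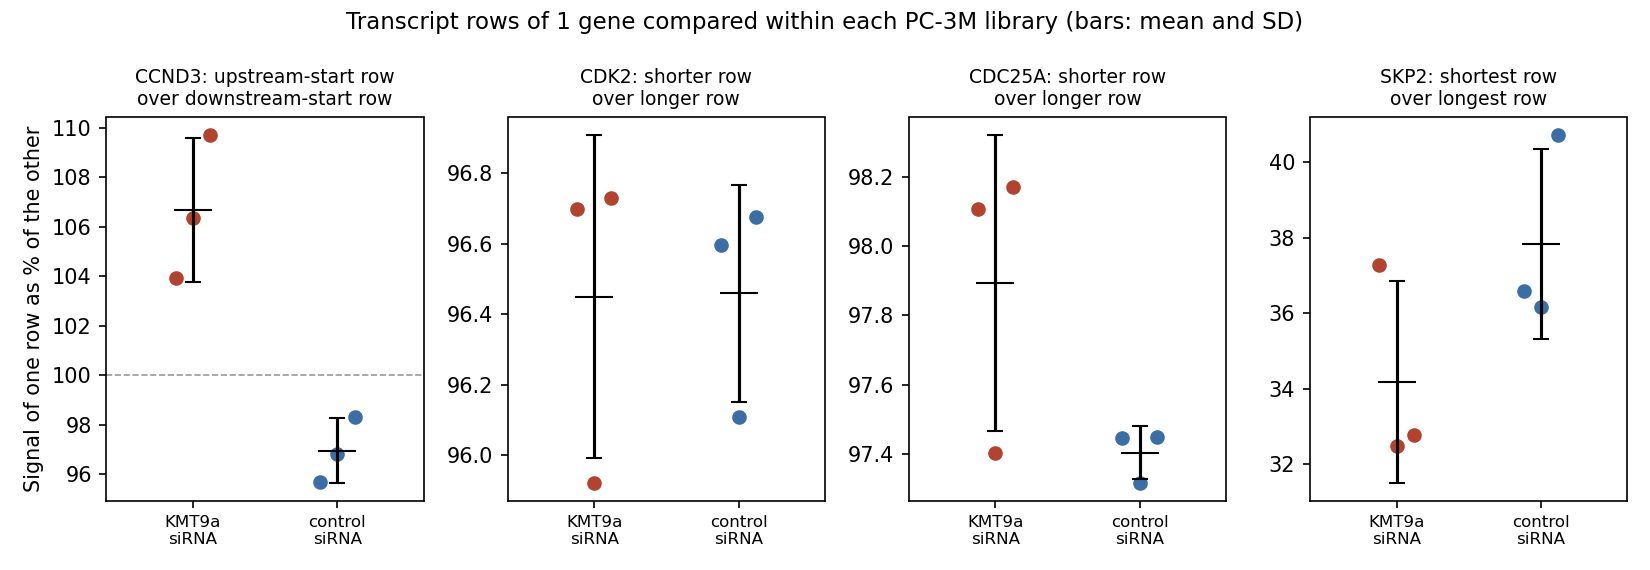
Signal of 1 transcript row in percent of another row of the same gene, for each PC-3M library, with KMT9a siRNA to the left of control siRNA, bars for the mean and SD and an axis of its own for each gene that does not start at 0. In CCND3 all KMT9a siRNA libraries lie above the dashed line of equal signal and all control libraries below it, and in CDK2, CDC25A and SKP2 the groups overlap.

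Of the 10 members, 5 had several transcript rows and 5 had 1 row. Rows of a gene share most of their exons, so only the differences between rows carry information on transcript forms. The rows of CCND3 differ in their first exon. NM_001136017 starts far upstream and spans hg19 chromosome 6, positions 41902671 to 42016610, while NM_001760 starts downstream, at 41909552 on the same minus strand. The whole upstream-start row, exons shared with the other row included, held 103.9%, 106.4% and 109.7% of the signal of the downstream-start row with KMT9a siRNA, against 95.7%, 96.8% and 98.3% with control siRNA. The groups did not overlap, and the difference came from 30, 65 and 70 read ends more in the upstream row with KMT9a siRNA, against 50, 34 and 21 read ends fewer with control siRNA. Because most reads are shared, these percentages do not give how often each start was used. The other pair of CCND3 rows with these starts shares the same reads and is no further evidence. The exact two-sided permutation test gave p = 0.1, or 0.3 adjusted over the 6 contrasts, so it did not pass. In a fit over all 26205 tested rows, neither row passed, with log2 fold changes of 0.08 and -0.06 (limma adjusted p = 0.439 and 0.548). This contrast was chosen after the values had been seen, and leaving out 1 library at a time kept the difference at 8.19 to 11.1 percentage points.
After trimming, no bases were left of the CCND3 promoter nearest the upstream start. The promoter nearest the downstream start is shown because the contrast turns on the choice of start. It is at chr6:41941849-41942058 of GRCh38.p14 on the minus strand, and capitals mark a CCAAT box and an SP1 box.
CCND3: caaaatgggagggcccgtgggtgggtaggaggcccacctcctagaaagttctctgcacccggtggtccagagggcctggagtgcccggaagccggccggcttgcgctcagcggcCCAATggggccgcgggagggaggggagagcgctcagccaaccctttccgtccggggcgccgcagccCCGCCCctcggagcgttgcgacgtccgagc

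The rows of CDK2, CDC25A, SKP2 and CDK6 gave no such contrast. In CDK2, which has 2 annotated forms, the shorter row had 96.5% ± 0.458 of the reads of the longer with KMT9a siRNA and 96.5% ± 0.307 with control siRNA (SD, n = 3). In CDC25A the shorter row had 97.9% ± 0.426 with KMT9a siRNA and 97.4% ± 0.0764 with control siRNA, and in SKP2 the shortest row had 34.2% ± 2.68 and 37.8% ± 2.52 of the longest in the same groups. The groups overlapped in each (exact two-sided permutation tests, p = 1, 0.3 and 0.3). CDK6 rows had 99.9% of each other's reads in both groups.

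**Figure D5:**
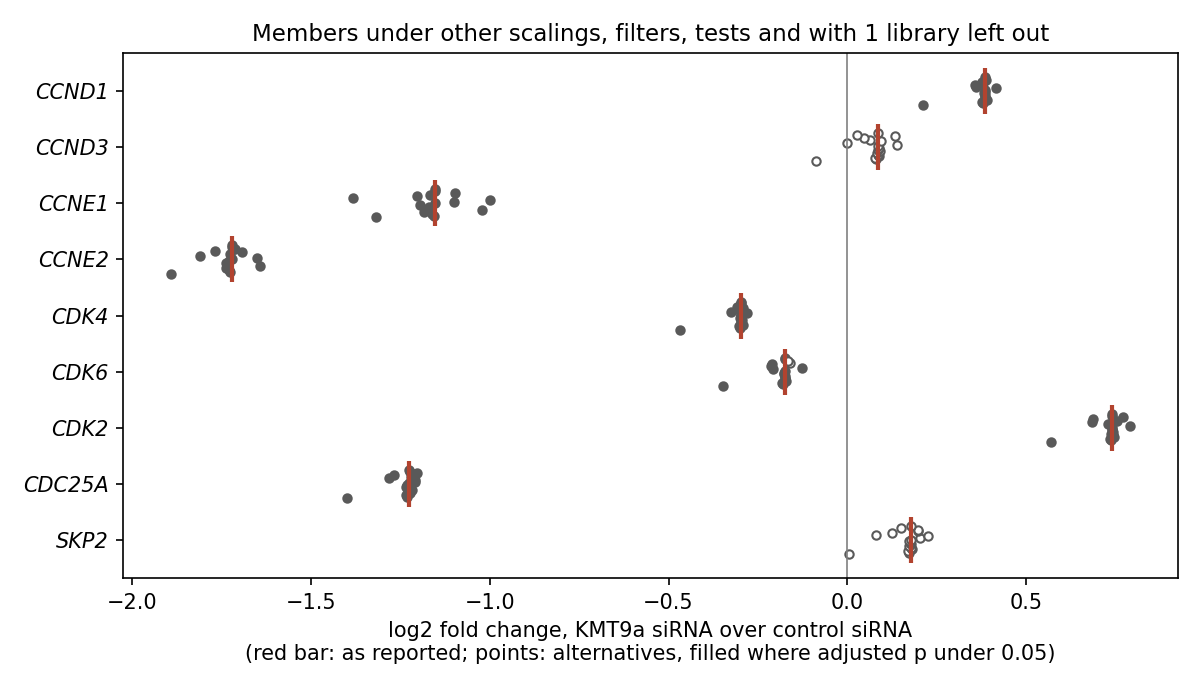
log2 fold change (KMT9a siRNA over control siRNA) of each tested member in PC-3M in the reported fit and under the alternative settings (points, filled where the adjusted p was under 0.05; the red bar is the reported value), 1 row per gene. CCNE1, CCNE2, CDC25A, CDK4 and CDK6 stay below 0 and CCND1 and CDK2 above 0 in every setting drawn, and CCND3 lies on both sides of 0.

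In the authors' deposited table of PC-3M the log2 fold changes were 0.36 for CCND1, 0.72 for CDK2, -0.32 for CDK4, -0.20 for CDK6, -1.18 for CCNE1, -1.75 for CCNE2, -1.25 for CDC25A and 0.15 for SKP2. Each of these had the sign of the limma value. The rows of CCND3 had both signs in the authors' values, with 0.06 for the counted row NM_001136017 and -0.07 for NM_001760. In the authors' deposited table the adjusted p-values of SKP2 and CCND2 were 0.278 and 0.791.

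In MCF10A the same comparison could not be made for the members. None of the 10 passed the filter there, where 1049 genes were tested and 5 were called. The members had 13 read ends in all 6 libraries together. CCND1 had 2, 3 and 2 read ends with KMT9a siRNA, against 1, 0 and 0 with control siRNA. CCND3, CDK2, CDK4 and CDC25A had at most 1 in any library, and CCND2, CCNE1, CCNE2, CDK6 and SKP2 were at 0 in all 6. A count of 0 allows up to 3 read pairs, which is 23.5 to 33.1 CPM at these depths. At the levels of PC-3M control libraries, the members would have had 134 to 189 read ends per MCF10A library, of which CCND1 alone 53.5 to 75.6, against 0 to 4 observed. N6AMT1 was also at 0 in all 6 MCF10A libraries, where 2.21 to 3.12 read ends would have been seen at its PC-3M control level, so the knockdown could not be checked. Of the epithelial and basal markers, 2 of 4 and 2 of 3 were above 1 CPM in MCF10A, with CDH1 and KRT5 at 0 in all 6 libraries. The basal sum was 10.2 to 431 CPM with KMT9a siRNA and 0 to 18.9 CPM with control siRNA, and the epithelial sum 11.7 to 49.7 and 19.1 to 77.8 CPM in the same groups. The members were thus seen less often than depth and PC-3M levels would give, the cause of which was not tested. With so few read ends, the response of the members to KMT9a siRNA in MCF10A, and its difference from PC-3M, were not assessed.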

How the data were processed

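The authors deposited 1 table per line. Per the file headers, each has 38763 rows of RefSeq transcripts on hg19, a column of scaled signal for each of 6 libraries, and the authors' own log2 fold change with its raw and adjusted p-value. STAR, HOMER and edgeR were used per the submitters' processing notes, without versions, roles or settings, and strand handling is not given in the sources used here. Total RNA was extracted with Trizol, per the labels' protocols. The signal of every row was a whole multiple of a step of its library (100% of values above 0, within 0.1 step), and whole read ends, 2 to a pair, were recovered on this basis.

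The tables hold 24359 gene symbols, and 1182 rows without annotation kept their RefSeq identifier. Genes were filtered with edgeR (minimum count 10, minimum total 15), keeping 14958 genes for PC-3M and 1049 for MCF10A. Because the values are scaled and not raw counts, the main test was limma 3.58.1 in R 4.3.3, with its trend option, on log2 (value after TMM scaling + pseudocount 1), within each table. Fold changes on this scale understate the change of low genes. CPM are given after TMM scaling, per total of the tested genes. CPM per kb divides by the row's transcript length. Adjusted p-values are Benjamini-Hochberg over all genes tested in a line (threshold 0.05). On the recovered reads, edgeR 4.0.16 called 11147 genes in PC-3M and DESeq2 1.42.0 called 10963. Single ratios were compared with exact two-sided permutation tests in SciPy 1.17.1. Floors cover counting error only, because without molecular identifiers reads cannot be taken as independent molecules.

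The members, the pathway and marker lists and the tests were chosen with earlier results of these data known, so they are descriptions and no independent support. All 10 members are named. Of the other pathway genes, the text names up to 4 of smallest p per group of the list, partners of a member, and further genes of a group set beside these. E2F4, E2F5, E2F6, FBXO4 and BTRC are counted but not described. Promoters came from RefSeq (GRCh38.p14), and GENCODE 29 starts were used to trim them. The fit was tested on simulated counts. Replicate numbers were checked for pairing and did not pair the libraries. In MCF10A, control replicates 1 and 2 were the closest 2 libraries of a group (chi-square per degree of freedom 0.790, taken on read pairs). They were counted as 1 sample in an alternative. The values of 1 of the marker lists are not reported here.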

Additional observations from a re-analysis of the deposited data

How the results depend on the processing

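Across 18 alternatives in PC-3M, covering scaling, filters, pseudocounts, edgeR, DESeq2, limma-voom, transcript rows, a replicate block and each library left out, the number of members called was 5 to 7, of all genes 8756 to 11815 (over 16 of them) and of pathway genes 31 to 38 (over 16 of them). The count of 5 came from a minimum mean of 5 CPM, which left CCNE1 and CCNE2 out of the fit. CCNE1, CCNE2, CDC25A, CDK4, CCND1 and CDK2 kept their direction and call in every alternative that tested them, with log2 fold changes of -1.38 to -0.998, -1.89 to -1.64, -1.40 to -1.20, -0.47 to -0.28, 0.21 to 0.42 and 0.57 to 0.79. CDK6 ranged from -0.35 to -0.13 and lost its call without control replicate 2 (-0.16) and without control replicate 3 (-0.17). CCND3 (-0.09 to 0.14) and SKP2 (0.01 to 0.23, adjusted p 0.0508 to 0.965) passed in none. Same-numbered libraries had correlations of -0.0619, -0.107 and -0.0122 in their deviations from the group means, so the numbers do not pair them. With the replicate block 7 members and 10949 genes were called, and no member call changed. In MCF10A 15 of 16 alternatives tested no member and so say nothing of stability. Without a filter 5 members were tested there and none passed in limma (0 with an unadjusted p under 0.05), and CCND1 had a log2 fold change of 0.98 (limma adjusted p = 0.652). The difference between lines and its alternatives gave no value in the filtered fits, and it was not run on the unfiltered one. Low read numbers limit CCNE1 (31 to 121 read ends per library), CCND2 and all MCF10A values, and the CCNE2 value is limited by its overlap with INTS8.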
